A study of Homo sapiens with 7 samples.

Results

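The genes described here are 10 genes for proteins that the liver secretes into blood: TTR, APOB, APOA1, APOA2, APOE, ALB, AFP, TF, SERPINA1 and FGB. They were chosen as a named list, with earlier results of these data known. Each symbol was matched to a single Ensembl gene ID, and all 10 of the 10 were found among the 66025 genes of the table. They were measured by RNA-seq in insulin-expressing β-like cells sorted with a zinc dye at stage 6 of differentiation from H1, an established human embryonic stem cell line. In the group iKD2 Dox+ (n = 3, replicates a to c), the line with an inducible shRNA against METTL14, part of the enzyme that writes m6A on mRNA, was differentiated with doxycycline (Dox). In iKD2 Dox- (b and c, n = 2) the same line was differentiated without Dox, and in iSCR Dox+ (a and b, n = 2) a line with a scramble shRNA was differentiated with Dox. Both lines are puromycin-selected lentiviral lines, so that iKD2 Dox- differs from iSCR Dox+ in both the hairpin line and the drug. The question was how strongly these genes are expressed in sorted β-like cells and whether METTL14 knockdown shifts them.

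Plasma proteins of this kind are made mainly by hepatocytes, and in the embryo also by the yolk sac. Liver and pancreas arise from neighbouring foregut endoderm, and both use transcription factors of the HNF4 and FOXA families, which drive many of these genes in the liver. TTR, which carries thyroxine and retinol-binding protein in plasma, is also a known product of islet endocrine cells, in particular of α-cells. APOB is the structural protein of very-low-density and low-density lipoproteins, APOA1 and APOA2 are the main proteins of high-density lipoprotein, and APOE is a ligand of lipoprotein receptors. ALB and its fetal relative AFP are the carrier proteins of adult and fetal plasma, TF carries iron, SERPINA1 (α1-antitrypsin) inhibits neutrophil elastase, and FGB is the β chain of fibrinogen.

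Promoter sequences are shown for the members whose window held letters of a FOXA core or a TATA box, the former bound by factors that liver and pancreas share. Sequences are from RefSeq (GRCh38.p14), cover 250 bases before and 50 after a transcription start, and are written 5′ to 3′ on the strand of the gene. Capitals mark TGTTTA, a FOXA core, or its reverse complement TAAACA, and TATAAA, the TATA box. Of the 10 genes, 7 had at least 1 window in the promoter table. The windows shown are APOA2 at chr1:161223579-161223878 (-) and AFP at chr4:73435971-73436270 (+).
APOA2: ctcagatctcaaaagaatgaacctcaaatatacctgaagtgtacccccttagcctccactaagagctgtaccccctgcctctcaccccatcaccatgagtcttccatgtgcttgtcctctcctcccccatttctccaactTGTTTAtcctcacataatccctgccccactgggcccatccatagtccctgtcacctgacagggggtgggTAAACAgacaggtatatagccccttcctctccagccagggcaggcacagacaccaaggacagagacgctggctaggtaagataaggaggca
AFP: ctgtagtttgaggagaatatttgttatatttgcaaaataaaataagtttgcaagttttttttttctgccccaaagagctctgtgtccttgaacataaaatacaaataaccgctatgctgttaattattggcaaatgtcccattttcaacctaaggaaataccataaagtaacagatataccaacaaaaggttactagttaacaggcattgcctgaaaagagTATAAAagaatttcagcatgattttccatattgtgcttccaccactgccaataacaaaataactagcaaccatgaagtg

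APOA2 held the FOXA letters at bases -110 to -105 before its start and, on the opposite strand, at -41 to -36, and AFP held TATAAA at bases -29 to -24. On both strands TGTTTA was present in 12.3% and TATAAA in 11.5% of all 35116 promoter windows of the table. Neither was found in the windows of ALB, FGB, SERPINA1, APOE and TF. CAAAGTC, a core of HNF4 sites, was in none of the members' windows (3.37% of all). No match overlapped another, and these matches describe letters only and are no evidence of binding.

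Libraries held 14875429 to 20639156 estimated counts and 19652 to 23747 genes with at least 1 count. Libraries of the same group differed far beyond sampling noise, by a median of 97.8 to 163 times the Poisson variance. Levels are given in CPM, read counts scaled by TMM to a common library size, and within a group always in the order of the replicate letters. METTL14 was at 18.7, 16.3 and 49.1 CPM in iKD2 Dox+, 39.4 and 22.6 CPM in iKD2 Dox-, and 36.1 and 32.2 CPM in iSCR Dox+. The fitted log2 fold change of METTL14 in iKD2 Dox+ was -0.14 (SE 0.63) against iKD2 Dox- and -0.28 against iSCR Dox+, and the groups overlapped in both. Lower METTL14 in iKD2 Dox+ as a group was therefore not seen beyond the spread. Of all libraries, that labelled iKD2 Dox+ c held the highest level of the targeted gene, against its label. Results for TTR, APOE and SERPINA1 are also given without it. INS ranged from 11370 to 22300 CPM, CHGA from 12450 to 17940 CPM and GCG from 5039 to 12850 CPM, so that the sorted cells carried endocrine markers of both β- and α-cells. Nothing in the labels says that each library came from its own culture, and p-values measure only the spread between these samples.

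Every one of the 10 genes was detected in at least 1 library, at levels that differed widely. Between genes, levels were compared per kilobase of the longest coding transcript in GENCODE 29. On this scale TTR stood highest, at 1331 ± 337 CPM per kilobase (SD over 7 libraries), place 16 among 19674 coding genes. APOE followed at 180 ± 90.7, SERPINA1 at 76.7 ± 22.7 and FGB at 60.2 ± 27.5 CPM per kilobase. APOA1 was at 19.2 ± 7.85, APOB at 14.0 ± 6.25, AFP at 5.37 ± 4.22, APOA2 at 1.76 ± 2.21 and ALB at 1.19 ± 1.496 CPM per kilobase. TF came last at 0.479 ± 0.275, but its longest transcript in that annotation measures 20602 bases and shares exons with SRPRB and the pseudogene TFP1, so its place was not read further. TTR was above APOE in 7 of 7 libraries with no overlap of their ranges, whereas every other pair of neighbours in this order overlapped in range. APOE was above SERPINA1 in 7 of 7 libraries and FGB above APOA1 in 7 of 7, but SERPINA1 was above FGB in 5 and AFP above APOA2 in 4. With the union of all annotated exons as length, the order of the 10 was the same, and TTR was at 578 CPM per kilobase.

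TTR is the most abundant of these genes and is also a known product of islet α-cells. It lies at chr18:31557010-31599021 (+, GRCh38). TTR was at 892, 1375 and 1020 CPM in iKD2 Dox+, 1789 and 1250 CPM in iKD2 Dox-, and 1719 and 1647 CPM in iSCR Dox+. The iKD2 Dox+ libraries were below both iSCR Dox+ libraries and overlapped iKD2 Dox-. The fitted log2 fold change of TTR was -0.62 (SE 0.18) against iSCR Dox+ (95% interval -1.001 to -0.24, edgeR's quasi-likelihood test, Benjamini-Hochberg adjusted p = 0.466). Against iKD2 Dox- it was -0.47 (SE 0.18, 95% interval -0.85 to -0.09, adjusted p = 1), and between the control groups -0.15 (95% interval -0.57 to 0.28). TTR did not pass the adjusted threshold in any comparison with edgeR on all libraries, but passed against iSCR Dox+ with DESeq2 (adjusted p = 0.0223). Over the leave-one-out fits, its log2 fold change against iSCR Dox+ ranged from -0.82 to -0.49. The study itself listed TTR among α-cell genes in these samples, so its direction here is not independent evidence.

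TTR moved across libraries together with both islet hormones. The order of TTR was close to that of GCG, the glucagon gene (Pearson r of log2(CPM + 1) = 0.87, Spearman rho = 0.96 over 7 libraries that share groups and scaling), and of INS (r = 0.89, rho = 0.82). TTR counts were 11.9% to 17.7% of GCG counts in each library, with 17.7%, 14.5% and 11.9% in iKD2 Dox+, 13.9% and 13.8% in iKD2 Dox-, and 16.1% and 17.5% in iSCR Dox+. Relative to INS, TTR was at 7.67%, 10.1% and 8.98% in iKD2 Dox+, 10.3% and 8.54% in iKD2 Dox-, and 7.71% and 7.66% in iSCR Dox+. On either ratio, iKD2 Dox+ overlapped iKD2 Dox-, and its highest library was above both iSCR Dox+ libraries. Relative to CHGA, a gene of endocrine secretory granules, TTR was at 7.17%, 9.54% and 8.15% in iKD2 Dox+, 9.97% and 7.18% in iKD2 Dox-, and 10.9% and 9.745% in iSCR Dox+. On this ratio all 3 iKD2 Dox+ libraries were below both iSCR Dox+ libraries, and they overlapped iKD2 Dox-. INS itself fell by 0.85 (SE 0.10) on the log2 scale from iSCR Dox+ to iKD2 Dox+, with an adjusted p of 4.71e-04. INS was the only gene of the lists used here that passed the edgeR test in any comparison. Against iKD2 Dox- its log2 fold change was -0.39 (SE 0.105, edgeR adjusted p = 0.451). The control groups differed in INS as well, by -0.45 (SE 0.12, edgeR adjusted p = 0.614) for iKD2 Dox- against iSCR Dox+. That difference between controls passed with DESeq2 and with limma voom. In bulk samples, fewer cells of a type and less RNA per cell cannot be told apart.

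**Figure D1:**
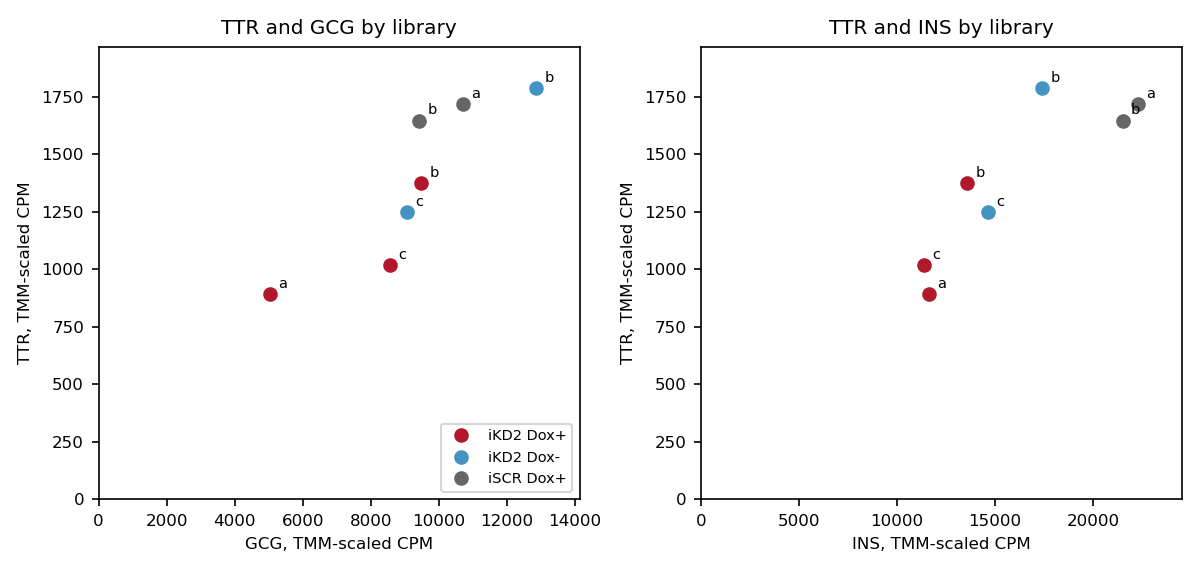
TTR (vertical axis, TMM-scaled CPM) against GCG (left) and INS (right, TMM-scaled CPM), 1 point per library, coloured by group and marked with the replicate letter. Library iKD2 Dox+ a is lowest for TTR (892 CPM) and GCG (5039 CPM), and iKD2 Dox- b is highest for both (1789 and 12850 CPM).

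Among the apolipoproteins on the list, APOE alone had all 3 iKD2 Dox+ libraries below all 4 controls. APOE (chr19:44905754-44909393, +) was at 120, 166 and 169 CPM in iKD2 Dox+, 215 and 189 CPM in iKD2 Dox-, and 210 and 455 CPM in iSCR Dox+. The iSCR Dox+ b library stood far above every other library. The log2 fold change was -1.13 (SE 0.28) against iSCR Dox+ (95% interval -1.72 to -0.55, adjusted p = 0.304) and -0.42 (SE 0.28) against iKD2 Dox- (95% interval -1.01 to 0.18, adjusted p = 1). The control groups also stood apart, by -0.72 (SE 0.32, adjusted p = 0.826) for iKD2 Dox- against iSCR Dox+. Over the leave-one-out fits, the log2 fold change against iSCR Dox+ ranged from -1.585 to -0.47, and it was -0.47 without iSCR Dox+ b. Leaving out a control library leaves its group without replicates, so no p-value is given for those fits. APOE passed the threshold against iSCR Dox+ with no filter on low counts (adjusted p = 0.0178) and with DESeq2 (0.0036). Relative to INS, APOE was at 1.03%, 1.22% and 1.49% in iKD2 Dox+. The controls were at 1.24% and 1.295% (iKD2 Dox-) and at 0.944% and 2.12% (iSCR Dox+). Relative to CHGA, APOE ranged from 0.963% to 1.352% in iKD2 Dox+. The controls were at 1.20% and 1.088% (iKD2 Dox-) and at 1.337% and 2.695% (iSCR Dox+). On both ratios iKD2 Dox+ overlapped each control group.

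APOB (chr2:21001429-21044073, -) was at 37.0, 237 and 123 CPM in iKD2 Dox+, 262 and 214 CPM in iKD2 Dox-, and 214 and 293 CPM in iSCR Dox+. Libraries iKD2 Dox+ a and c were below all 4 controls, iKD2 Dox+ a the lower, while iKD2 Dox+ b lay within the control libraries. The log2 fold change was -0.94 (95% interval -2.79 to 0.91) against iSCR Dox+ and -0.85 (-2.70 to 1.004) against iKD2 Dox-, so that neither a fall nor a rise could be told from the spread. Without iKD2 Dox+ a, these values were -0.50 and -0.40. MTTP, which loads lipid onto APOB in hepatocytes and enterocytes, was at 1.27 to 8.92 CPM and was chosen for mention after its values were seen.

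APOA1 (chr11:116835751-116837950, -) was at 14.7, 21.65 and 18.1 CPM in iKD2 Dox+, 32.4 and 21.95 CPM in iKD2 Dox-, and 40.9 and 15.6 CPM in iSCR Dox+. iSCR Dox+ a was the highest library and iSCR Dox+ b lay within the range of iKD2 Dox+, and iKD2 Dox+ b was barely below iKD2 Dox- c. The log2 fold change was -0.58 (SE 0.69) against iKD2 Dox- and -0.64 (SE 0.69) against iSCR Dox+. The antisense gene APOA1-AS overlaps APOA1 on the other strand and had 0 counts except 19 in iSCR Dox+ a, and whether counting used strand was not given in the sources used here. APOA2 (chr1:161222292-161223631, -) was near the detection floor, with 0, 10 and 15 counts in iKD2 Dox+, 62 and 37 in iKD2 Dox-, and 0 in both iSCR Dox+ libraries. In iKD2 Dox- the mean of 2.52 CPM was at least 12.5-fold higher than iSCR Dox+ at a floor of 3 counts per library (0.202 CPM on average). The adjusted p of that comparison was 0.826. The floor covers counting error only, since PCR copies are not independent molecules.

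SERPINA1 (chr14:94376747-94390693, -) was, with APOE, the other gene whose 3 iKD2 Dox+ libraries were all below the 4 controls. SERPINA1 was at 203, 210 and 178 CPM in iKD2 Dox+, 328 and 304 CPM in iKD2 Dox-, and 402 and 271 CPM in iSCR Dox+. The iKD2 Dox+ libraries lay close together, and the lowest control was iSCR Dox+ b. The log2 fold change was -0.68 (SE 0.23, 95% interval -1.16 to -0.21, adjusted p = 1) for iKD2 Dox+ against the same line without Dox, and -0.77 (SE 0.23, 95% interval -1.25 to -0.30, adjusted p = 0.466) against iSCR Dox+, with -0.09 (95% interval -0.62 to 0.44) between the controls. Over the leave-one-out fits, the first ranged from -0.74 to -0.62 and the second from -1.03 to -0.46. Against iSCR Dox+, SERPINA1 passed with DESeq2 (adjusted p = 0.00787). Its counts were whole, within 0.001, in only 2 of 7 libraries, as happens when Kallisto divides reads between genes. Relative to INS, SERPINA1 was at 1.75%, 1.55% and 1.56% in iKD2 Dox+, 1.89% and 2.08% in iKD2 Dox- and at 1.80% and 1.26% in iSCR Dox+, so that on this ratio iKD2 Dox+ stayed below iKD2 Dox- and overlapped iSCR Dox+.

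FGB (chr4:154562956-154571086, +) behaved unlike the rest. FGB was at 180, 87.1 and 105 CPM in iKD2 Dox+, 101 and 85.1 CPM in iKD2 Dox-, and 210 and 65.1 CPM in iSCR Dox+. The highest and the lowest library belonged to the same group, and iKD2 Dox+ a, the library lowest for 7 of the 10 genes, was the second highest for FGB. The log2 fold change was 0.41 (SE 0.43) against iKD2 Dox- and -0.16 (SE 0.42) against iSCR Dox+. The partner chains of fibrinogen, named here after their values were seen, were at 21.6 to 56.5 CPM for FGA and 13.4 to 69.7 CPM for FGG. Both were highest in iSCR Dox+ a, as was FGB.

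The plasma carriers were scarce and irregular. ALB (chr4:73397114-73421412, +) had 0, 0 and 11 counts in iKD2 Dox+, 164 and 117 in iKD2 Dox-, and 56 and 0 in iSCR Dox+. In CPM this was 0, 0 and 0.629, then 7.99 and 6.37, then 3.79 and 0, with both iKD2 Dox- libraries above the other 5. The log2 fold change of -5.04 against iKD2 Dox- had an SE of 3.12 (adjusted p = 1). In iKD2 Dox+ only replicate c held counts of ALB, and over the leave-one-out fits the value ranged from -9.925 to -4.48. AFP (chr4:73431138-73456174, +) was at 0, 7.93 and 16.2 CPM in iKD2 Dox+, 13.4 and 4.36 CPM in iKD2 Dox-, and 30.9 and 20.5 CPM in iSCR Dox+. Both iSCR Dox+ libraries were above the other 5, with a log2 fold change of -1.68 (SE 1.39) for iKD2 Dox+ and -1.54 (SE 1.58) for iKD2 Dox- against them. TF (chr3:133745956-133796640, +) was at 8.05, 8.94 and 4.42 CPM in iKD2 Dox+, 14.0 and 18.5 CPM in iKD2 Dox-, and 2.23 and 12.9 CPM in iSCR Dox+. Its counts were whole, within 0.001, in 0 of 7 libraries, and since it overlaps SRPRB and TFP1 on the same strand, the level of TF is uncertain.

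**Figure D2:**
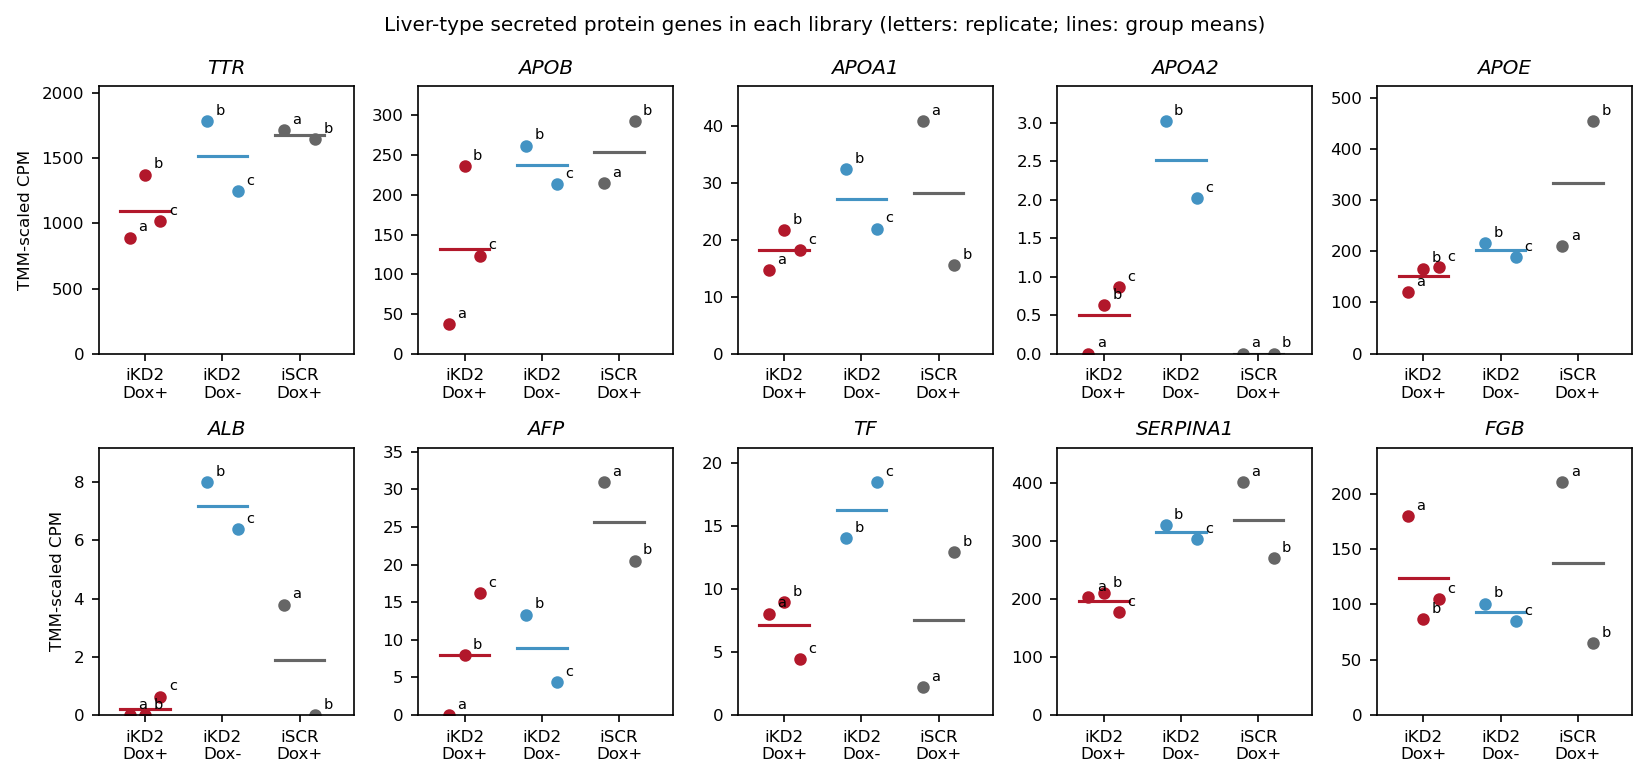
TMM-scaled CPM of the 10 genes (linear vertical axes from 0) in each of 7 libraries, by group, with replicate letters beside the points and a line at each group mean. For SERPINA1 and APOE the 3 iKD2 Dox+ points lie below the 4 control points, and for FGB the group iSCR Dox+ holds both the highest (210 CPM) and the lowest (65.1 CPM) point.

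Over the 10 genes, 9 had a negative log2 fold change in iKD2 Dox+ against iKD2 Dox- (median -0.63) and 9 against iSCR Dox+ (median -0.70). The exceptions were FGB in the first comparison and APOA2 in the second. Over all 22926 genes tested, the medians were 0.02 and 0.08, and 49.2% and 46.7% of the genes were negative. Since the list was chosen with earlier results of these data known, its comparison with all genes is a description only. Between iKD2 Dox- and iSCR Dox+, 7 were negative (median -0.09, all genes 0.04). Both comparisons of iKD2 Dox+ share its 3 libraries, so that their directions are not separate observations. With edgeR on all libraries, none of the 10 passed the adjusted threshold in any of these comparisons, where 0.0393%, 0.0262% and 0.0131% of all genes did, in the order given. With DESeq2, TTR, APOE and SERPINA1 passed against iSCR Dox+, where 790 of all genes did, and 0 of the 10 in the other comparisons. At an unadjusted p under 0.05, there were 2 (TTR and SERPINA1, both lower, 3.72% of all genes in either direction), 3 (TTR, APOE and SERPINA1, lower, 6.72%) and 1 (APOE, lower, 4.45%).

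In the comparison with iKD2 Dox-, the groups did not overlap and iKD2 Dox+ was lower for 6 of the 10 (APOA1, APOA2, APOE, ALB, TF and SERPINA1), as for 11.6% of all genes. Against iSCR Dox+ this held for 4 (TTR, APOE, AFP and SERPINA1; 9.23% of all genes). iKD2 Dox+ was higher without overlap for 0 of the 10 in both, where 8.74% and 11.4% of all genes were. For iKD2 Dox- against iSCR Dox+, 1 gene was lower without overlap (AFP; 13.3% of all genes) and 3 were higher (APOA2, ALB and TF; 19.9%). Below all 4 controls together were APOE and SERPINA1, 2 of the 10, against 2.83% of all genes. With that labelled iKD2 Dox+ c left out, the same 2 genes remained below all controls, where 5.95% of all genes then did. The log2 fold changes against iKD2 Dox- and iSCR Dox+ were then -0.43 and -0.57 for TTR, -0.51 and -1.23 for APOE and -0.62 and -0.70 for SERPINA1, and none passed (adjusted p = 0.767 against iSCR Dox+ for each). Without iKD2 Dox+ a they were again APOE and SERPINA1 (5.33%). The count was 2 without iKD2 Dox- b (4.58%), 3 without iKD2 Dox- c (4.52%) or iSCR Dox+ a (5.70%), and 4 without iKD2 Dox+ b (5.83%) or iSCR Dox+ b (5.16%).

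**Figure D3:**
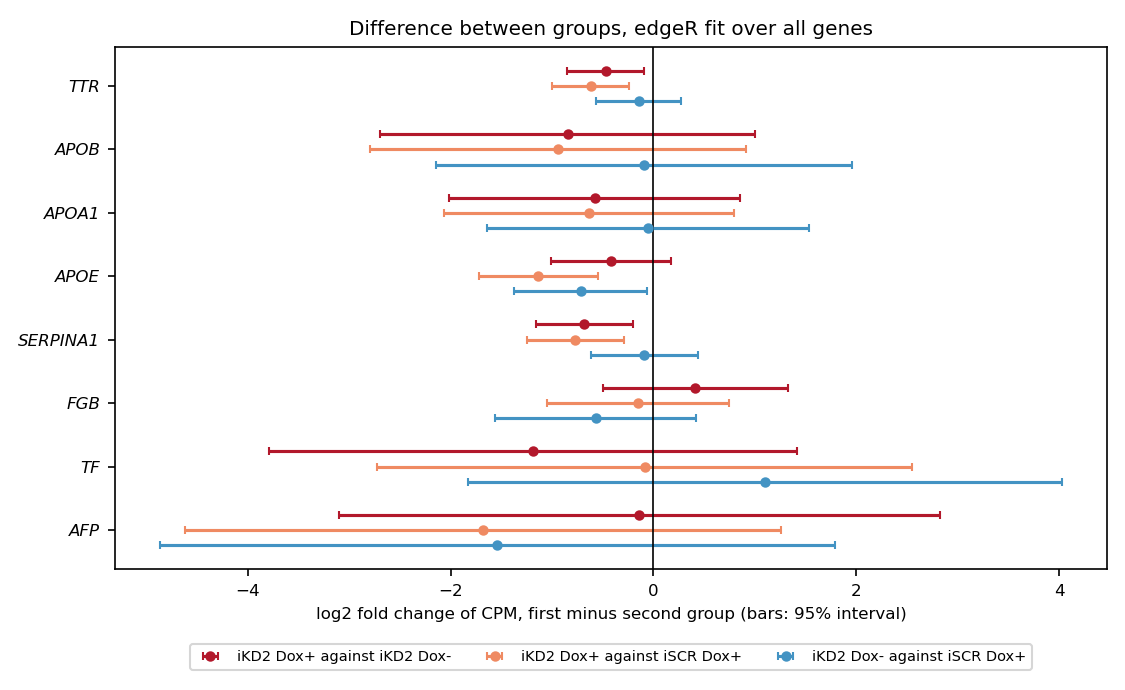
Log2 fold change (horizontal axis, first minus second group) with its 95% interval for the 8 genes with a mean of at least 5 CPM, for each of 3 comparisons. Intervals of SERPINA1 and TTR lie below 0 in both comparisons of iKD2 Dox+ before adjustment for the number of genes, and those of APOB, APOA1, FGB, TF and AFP include 0 throughout.

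No library was the lowest or the highest for every gene. iKD2 Dox+ a was the lowest library, ties at 0 included, for 7 of the 10 genes, whereas iSCR Dox+ a was the highest for 4 and iKD2 Dox- b for 3. The 10 genes summed to 1454, 2114 and 1635 CPM in iKD2 Dox+, to 2766 and 2095 CPM in iKD2 Dox-, and to 2833 and 2780 CPM in iSCR Dox+. On this sum iKD2 Dox+ overlapped iKD2 Dox-, with 2114 CPM in iKD2 Dox+ b and 2095 CPM in iKD2 Dox- c. TTR made up most of each sum. Without TTR the sums were 562, 739 and 615 CPM in iKD2 Dox+, 977 and 846 CPM in iKD2 Dox- and 1115 and 1134 CPM in iSCR Dox+, with no overlap between iKD2 Dox+ and the controls. These sums include APOE and SERPINA1, which were each below all controls, so they are not a separate result.

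**Figure D4:**
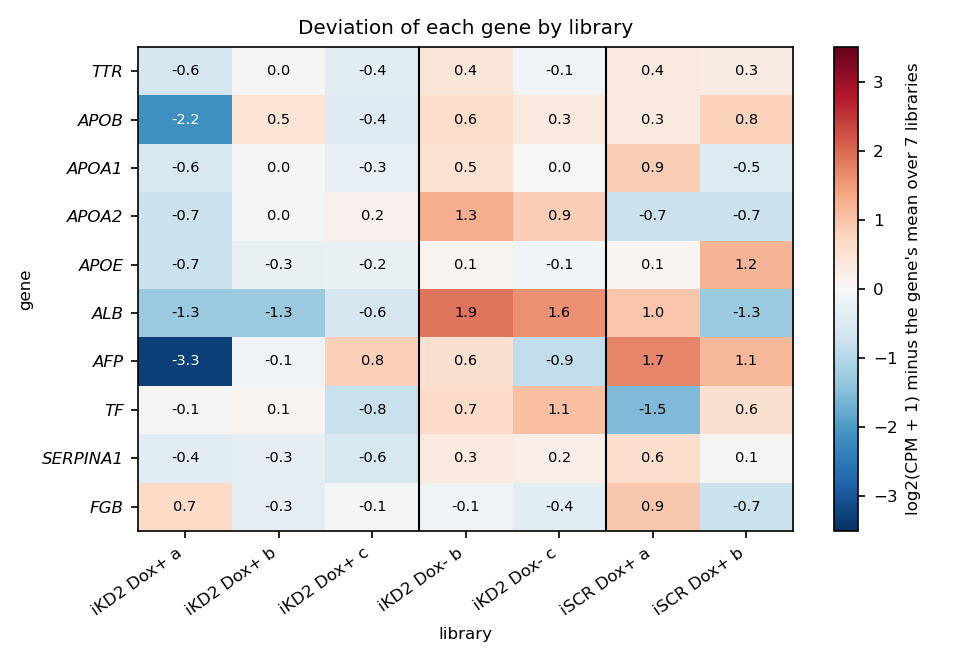
Log2(CPM + 1) of each gene (rows) minus its own mean over 7 libraries (columns, ordered by group, with lines between groups). Red is above and blue below the mean of the gene. Library iKD2 Dox+ a is below the mean for 9 of the 10 genes and above it for FGB.

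Across the 7 libraries, TTR went with APOB (r = 0.86, rho = 0.82), SERPINA1 (r = 0.78, rho = 0.82) and APOE (r = 0.69, rho = 0.79). APOA1 went with SERPINA1 (r = 0.78, rho = 0.82) and ALB (r = 0.75, rho = 0.78). FGB stood against TF (r = -0.71, rho = -0.79) and APOB (r = -0.57, rho = -0.57), and was near 0 with SERPINA1 (r = 0.20, rho = 0.04). These are descriptions over 7 points that share groups and depth scaling. Of 8605 genes with a mean of at least 20 CPM, those most like TTR by Pearson r were ALDH9A1 (0.973), CLU (0.970) and TMEM200A (0.967). For SERPINA1 they were SELENOT, APCDD1 and PRNP (0.973 to 0.983), for APOE SEC24D, ZNF268 and CCDC88A (0.958 to 0.995), and for APOA1 TMEM230, GLYCTK and SMARCA2 (0.961 to 0.981). APOB was most like CTDNEP1, a second gene ID with the same r, and PTPRD (0.978 to 0.980). For FGB they were WIPF1, PKP2 and SLC41A3 (0.970 to 0.990), for AFP RUFY2, MVD and NOL4 (0.977 to 0.982), and for TF MME, IGSF1 and HDGFL3 (0.967 to 0.974). These r values are the highest of a search over 8605 genes and 7 libraries, so their size reflects that selection and is a description only.

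Other genes of the same kinds were examined by list. Of 16 further apolipoproteins, all 16 had a count in some library, but only 5 had a mean of at least 5 CPM. CLU (clusterin, a secreted chaperone) led at 370 to 701 CPM, followed by APOC1 at 21.1 to 52.0 CPM and APOL6 at 4.17 to 85.4 CPM. Of the 12 tested, 0 passed with edgeR (2 and 1 at an unadjusted p under 0.05 against iKD2 Dox- and iSCR Dox+) and 6 had a negative log2 fold change against iKD2 Dox- (median 0.14). Against iSCR Dox+ 4 were negative (median 0.57). In every iKD2 Dox+ library CLU was below all 4 controls, with log2 fold changes of -0.49 (SE 0.20, adjusted p = 1) and -0.61 (SE 0.20, adjusted p = 0.557), and with DESeq2 it passed against iSCR Dox+. The 16 genes, of which CLU made up most, summed to 523, 564 and 562 CPM in iKD2 Dox+, 750 and 597 CPM in iKD2 Dox-, and 746 and 758 CPM in iSCR Dox+, so that iKD2 Dox+ was below all 4 controls on this sum.

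Of 40 further plasma proteins, 34 were detected and 30 tested, of which 0 passed with edgeR, DESeq2 or limma voom (3 and 2 at an unadjusted p under 0.05) and 16 were negative against iKD2 Dox- (median -0.05) and 15 against iSCR Dox+ (median -0.03). The highest were F10 (coagulation factor X) at 55.0 to 84.9 CPM, AGT (angiotensinogen) at 26.5 to 80.1 CPM and AMBP at 20.7 to 75.0 CPM. AHSG, SERPINA7, SERPINC1, ORM1, ORM2 and KNG1 were at 0 in all 7 libraries. Among 15 genes of lipoprotein assembly and uptake, all tested, 0 passed with these tools (2 and 1 unadjusted), and the highest were P4HB at 621 to 851 CPM and the receptor LRP1 at 326 to 588 CPM. Of 14 regulators of liver-type genes, led by FOXA2 (280 to 495 CPM), PROX1 (163 to 276 CPM) and ONECUT2 (94.4 to 171 CPM), 0 passed in any comparison (0 and 2 unadjusted).

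Hepatocyte markers that are not secreted were mostly low. Of 22 such genes, 17 had a count in some library, 2 in all, and 4 had a mean of at least 5 CPM. Their summed level was 25.8 to 38.7 CPM in iKD2 Dox+, 55.4 to 57.0 CPM in iKD2 Dox- and 42.8 to 58.2 CPM in iSCR Dox+. On this sum iKD2 Dox+ was below both control groups without overlap. The highest were PCK1 (0.286 to 14.0 CPM), FAH (0 to 13.2 CPM) and CPS1 (0 to 19.3 CPM), while ARG1, HPD, CYP3A7, CYP7A1 and SLC10A1 were at 0 in all 7 libraries. Of the 13 tested, 0 passed with edgeR (0 and 1 unadjusted) and 1 with DESeq2, CPS1, against iSCR Dox+ (10.6 CPM on average in iKD2 Dox+ and 0.0669 CPM in iSCR Dox+). Intestinal epithelium markers, led by VIL1 (99.1 to 191 CPM), ANPEP (23.5 to 89.1 CPM) and CDX2 (7.96 to 52.3 CPM), summed to 229 to 270 CPM in iKD2 Dox+, 295 to 299 CPM in iKD2 Dox- and 174 to 270 CPM in iSCR Dox+, with 10 of 10 detected.

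Sums of ductal markers and of the list of β- and other endocrine cells separated iKD2 Dox+ from both control groups in the same libraries. The α-cell sum, most of it GCG (5039 to 12850 CPM), did not, since iKD2 Dox+ overlapped iKD2 Dox-. Of the 10 α-cell markers, 8 had a negative and 2 a positive log2 fold change in iKD2 Dox+ against each control group. The medians were -0.48 against iKD2 Dox- and -0.35 against iSCR Dox+. Ductal markers (7 of 7 detected, led by KRT19, SOX9 and KRT7) summed to 930 to 1011 CPM in iKD2 Dox+, 467 to 583 CPM in iKD2 Dox- and 550 to 710 CPM in iSCR Dox+. Markers of β- and other endocrine cells (12 of 12 detected, led by INS, CHGA and SCG5) summed to 25250 to 29400 CPM, 33680 to 37260 CPM and 39650 to 40020 CPM in the same order, and α-cell markers (10 of 10, GCG and PCSK2 among them) to 6813 to 11370 CPM, 11260 to 15200 CPM and 11920 to 12990 CPM. Mesenchymal markers (8 of 8, led by VIM, COL3A1 and COL1A1) summed to 1045 to 1726 CPM, 943 to 983 CPM and 1202 to 1449 CPM, and acinar markers (5 of 8, led by CPA1, CEL and PRSS1, with CELA3A, PNLIP and AMY2A at 0 in all) to 8.97 to 33.0 CPM, 7.81 to 18.1 CPM and 9.97 to 19.9 CPM. The part of these cell types in the lower SERPINA1, APOE and TTR of iKD2 Dox+ was not tested.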

How the data were processed

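The authors deposited estimated counts for each gene. Adapter-trimmed reads of a stranded total-RNA kit were assigned to transcripts with Kallisto and added up per gene with tximport. fastp is also named in the submitters' processing notes. Versions, genome build, annotation and strand setting are not given in the sources used here. Kallisto divides reads between similar transcripts, so counts need not be whole.

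Counts were rounded, filtered with filterByExpr by group (22926 of 66025 genes kept, all 10 members among them), given TMM factors and entered, all 7 libraries in a single fit, into the robust quasi-likelihood test of edgeR 4.0.16 (R 4.3.3). The standard error was taken from the log2 fold change and the root of its F statistic. Benjamini-Hochberg adjustment ran over all genes tested, with calls at 0.05. Libraries held 14875429 to 20639156 counts, and a count of 0 allows up to 3 counts, 0.146 to 0.203 CPM. Coordinates and lengths are those of GENCODE 29.

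The members and lists were chosen with earlier results of these data known. Besides the members, METTL14 and INS, the text names list genes past the threshold, the 3 highest of each list (some items are not reported here), and the 3 genes most like each member with a mean of at least 5 CPM. Alternatives were DESeq2 1.42.0 (size factors and Wald test), limma 3.58.1 voom, no low-count filter, the compared groups alone, a replicate block, other lengths, plain-total CPM and each library left out. The scripts were tested on simulated data.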

Additional observations from a re-analysis of the deposited data

How the results depend on the processing

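Biological variation between replicates was estimated by edgeR at a coefficient of 1.14 over all genes, and APOA2 and ALB had a count of 0 in 3 of 7 libraries each, where only the floor bounds their level. Counts of all genes passing the adjusted threshold were 9 for iKD2 Dox+ against iKD2 Dox-, 6 against iSCR Dox+ and 3 for iKD2 Dox- against iSCR Dox+. In that order they were 51, 66 and 32 with no filter on low counts, 219, 790 and 483 with DESeq2, and 18, 15 and 8 with the replicate block. When each replicate was left out in turn, they ranged from 2 to 115, from 2 to 544 and from 2 to 445, with the highest value without iSCR Dox+ b each time. With only the groups compared, the last was 0 (edgeR; 1020 at an unadjusted p under 0.05 in the fit of all groups, 2 with limma voom, 483 with DESeq2).

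Of the 10 members, 0 passed against iSCR Dox+, 1 with no filter on low counts (APOE), 3 with DESeq2 (TTR, APOE and SERPINA1) and 0 with an iKD2 Dox+ replicate left out. Fits without a control library leave its group without replicates, so their p-values hold no spread within that group. In both other comparisons 0 passed under every alternative run. The replicate letters did not pair the libraries: deviations of same-letter libraries correlated at -0.03 to 0.02 over 8605 genes. With the replicate block the sign of FGB turned in all 3 comparisons (-0.065, 0.18 and 0.24), as did TF against iSCR Dox+ (0.28) and, between the controls, APOA1 (0.25) and SERPINA1 (0.11). With limma voom the sign turned for FGB (0.017) and TF (0.32) against iSCR Dox+ and for APOA1 between the controls (0.10).

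With a replicate left out, log2 fold changes that turned sign were those of AFP against iKD2 Dox- (-1.16 to 0.88), of ALB (-8.00 to 4.92), APOA1 (-1.17 to 0.22), FGB (-0.77 to 0.93) and TF (-0.85 to 1.67) against iSCR Dox+, and, between the controls, of TTR (-0.43 to 0.092), APOB (-0.30 to 0.15), APOA1 (-0.59 to 0.81), SERPINA1 (-0.34 to 0.23) and FGB (-1.18 to 0.52). The cause was not tested. TTR, APOB, APOE and SERPINA1 had a negative log2 fold change in iKD2 Dox+ against either control group under all 13 alternatives. Against iSCR Dox+ the median of all genes was 0.28 without iSCR Dox+ a and 0.49 without iSCR Dox+ b, against 0.08 with all libraries, and with limma voom the medians of the other comparisons were -0.10 and 0.17, against 0.02 and 0.04.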
